A study of Mus musculus with 20 samples.

Results

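The genes described here are 35 genes of glycolysis, glycogen metabolism and the hypoxia response, out of the 55335 genes in the expression table of the series. They were listed by name and kept where their mean expression value was at least 3 on the log2 scale explained below, which all 35 met in both experiments. By role they fall into glucose and lactate transport (4 genes), upper glycolysis (9), lower glycolysis (9), kinases that set the rate of glycolysis and pyruvate use (5), the hypoxia response (4) and glycogen (4).

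The study overexpressed the clock suppressors Per1 or Per2 in C2C12 myotubes, the fused muscle cells that a mouse myoblast line forms in low serum with insulin, and sequenced their poly(A) RNA. Myoblasts were differentiated for 3 days, transduced with adenovirus on day 4 and harvested 48 h later. In the Per1 experiment, 5 libraries of myotubes that received a virus carrying Per1 and Gfp (libraries 11 to 15) were compared with 5 libraries that received a virus carrying Gfp alone (libraries 11, 13, 14, 15 and 16). The Per2 experiment set 5 libraries from a virus carrying Per2 and Gfp (1 to 5) against 5 separate Gfp libraries (1 to 5). All transgenes were driven by CMV promoters, which are not specific to muscle. The study's methods give a higher concentration for the Per viruses than for the Gfp virus, so the amount of virus and the Per transgene cannot be told apart. The study's methods place the cultures inside 1 experimental replicate, and they are all of 1 cell line, so a p value here reflects culture-to-culture spread and nothing wider.

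Glycolysis breaks glucose down to pyruvate, and muscle can send that pyruvate to lactate or into the mitochondria. Several of its steps are run by alternative enzymes from separate genes, of which skeletal muscle favours some (Hk2, Pfkm, Aldoa, Pgam2, Eno3), while others are found in most tissues or mainly elsewhere (Hk1, Pfkl, Pfkp, Aldoc, Pgam1, Eno1). Glycogen is the glucose store of muscle, and the transcription factor HIF-1, whose oxygen-sensitive subunit is the product of Hif1a, switches on many glycolytic genes when oxygen is short.

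The mRNA content is given as rlog, a log2 value that the authors computed with DESeq2 and that draws differences toward 0, so the differences below are shrunken estimates. It is not scaled by gene length, so levels are not compared between genes. The values of the experiments were computed separately and were compared only within each experiment. Differences were tested with limma across the genes whose rlog averaged 3 or more, 20559 in the Per1 experiment and 20628 in the Per2 experiment, and a gene is called higher or lower at an adjusted p of at most 0.05. In the libraries labelled Per1, Per1 rose from 15.27 ± 0.028 to 19.58 ± 0.11, and in those labelled Per2, Per2 rose from 14.82 ± 0.11 to 19.71 ± 0.051 (rlog, mean ± SD, n = 5). Library depth is unknown, because rlog values cannot be read back as counts.

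Most of these genes moved with Per1, more of them up than down, and each by a small amount. In bulk RNA, a change in the cells of a type and a change in the mRNA per cell cannot be told apart. With Per1, 21 of the 35 genes were higher than with Gfp (60.0%) and 8 were lower (22.9%), while among all genes tested 20.1% were higher, 20.6% were lower and 40.7% were called in either direction. The members are abundant, and abundant genes were called more often: among the 12809 genes with a mean rlog at least that of the lowest member, 24.8% were higher and 28.0% lower (52.8% in all). The log2 differences of the members ran from -0.19 to 0.22 with a median of 0.09, against a median of 0.0011 over all genes. Expressed as a fold, this range is 0.875 to 1.16 on the rlog scale. In 18 of the 35 genes the Per1 and Gfp libraries did not overlap (51.4%), against 29.7% of all genes tested and 5193 of the 12809 in the abundant range. By limma, 0 of the 35 genes reached a log2 difference of 0.5 in size together with an adjusted p of at most 0.05 (31 of 35 had an unadjusted p under 0.05), a threshold that 0.443% of all genes passed upward and 0.253% downward (0.696% in all).

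With Per2 more of the genes were higher than lower as well, and Ppp1r3c and Pfkfb3 rose the most. In that experiment, 19 genes were higher (54.3%) and 6 were lower (17.1%), against 18.6% higher and 17.5% lower among all genes (36.1% in all) and 25.2% and 21.2% among the 12947 genes in the abundant range (46.4% in all). The log2 differences ran from -0.25 to 0.44 with a median of 0.10, against 0.0006 over all genes, and as a fold from 0.840 to 1.35. The libraries did not overlap in 20 genes (57.1%), against 26.3% of all genes and 4532 of the 12947 in the abundant range. By limma, 0 of the 35 reached 0.5 in size here (27 had an unadjusted p under 0.05), a threshold passed upward by 0.325% and downward by 0.296% of all genes (0.621% in all).

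The balance depended on how the libraries were put on a common scale. As deposited, 49.4% of all genes called with Per1 and 51.6% of those called with Per2 were higher. After each library was centred on its own median, these shares were 34.3% and 35.1%, and the median difference of all genes moved to -0.02 in both experiments. After centring on the ribosomal protein gene Rplp0, they were 70.0% and 94.6%, and the median difference moved to 0.03 with Per1 and 0.10 with Per2. Rplp0 itself fell by 0.10 with Per2 (SE 0.026, adjusted p = 0.00792 by limma), with overlapping libraries, while its difference with Per1 was -0.03 (adjusted p = 0.472). Under median centring 19 members were higher and 10 lower with Per1, and 18 were higher and 10 lower with Per2. Under Rplp0 centring 22 were higher and 4 lower with Per1, and 25 were higher and 1 lower with Per2, so the calls of lower genes turned on this choice while none of the called members changed direction. The plot of member differences under the scalings shows the whole set sliding together.

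**Figure D1:**
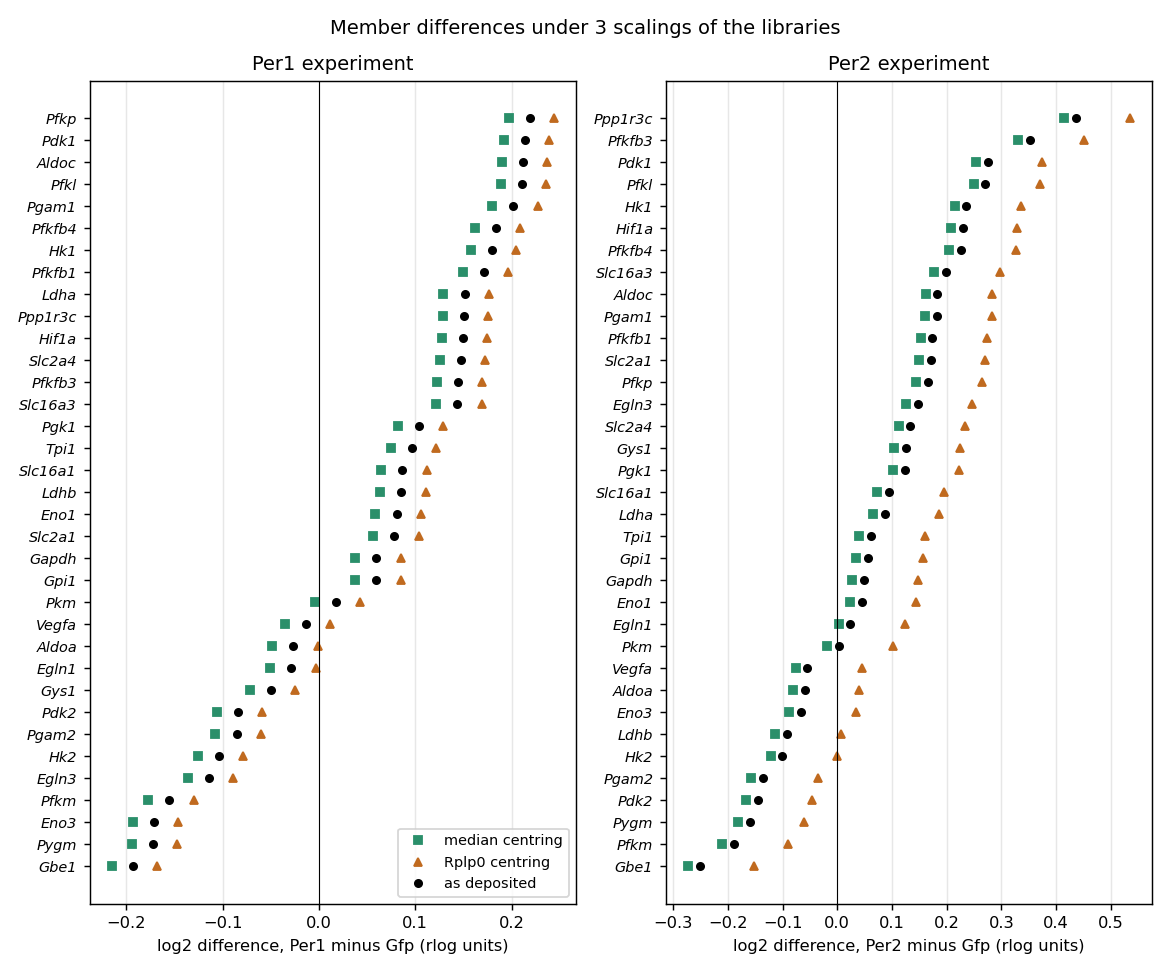
Log2 difference from Gfp (x axis, rlog units) of each of the 35 genes (y axis, ordered by the deposited value) in the Per1 experiment (left) and the Per2 experiment (right), as deposited (circles), after median centring (squares) and after Rplp0 centring (triangles). Rplp0 centring moves every gene upward, by about 0.03 with Per1 and 0.10 with Per2, and leaves Gbe1 the lowest gene in both experiments.

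Side by side, 17 genes were higher with Per1 and with Per2, and 6 were lower with both. The genes higher in both experiments were the transporters Slc2a1, Slc16a1 and Slc16a3, the enzymes Hk1, Gpi1, Pfkl, Pfkp, Aldoc, Pgk1, Pgam1 and Ldha, the kinases Pfkfb1, Pfkfb3, Pfkfb4 and Pdk1, and Hif1a and Ppp1r3c. The genes lower in both were Hk2, Pfkm, Pgam2, Pdk2, Pygm and Gbe1. Egln3 was lower with Per1 and higher with Per2, and 5 genes (Aldoa, Gapdh, Pkm, Egln1 and Vegfa) were called in neither. Of the 24 members called in both experiments, 23 had the same direction (95.8%), which is close to the 94.2% among all 4762 genes called in both. The plot of differences by role shows higher and lower genes within the same pathway step.

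**Figure D2:**
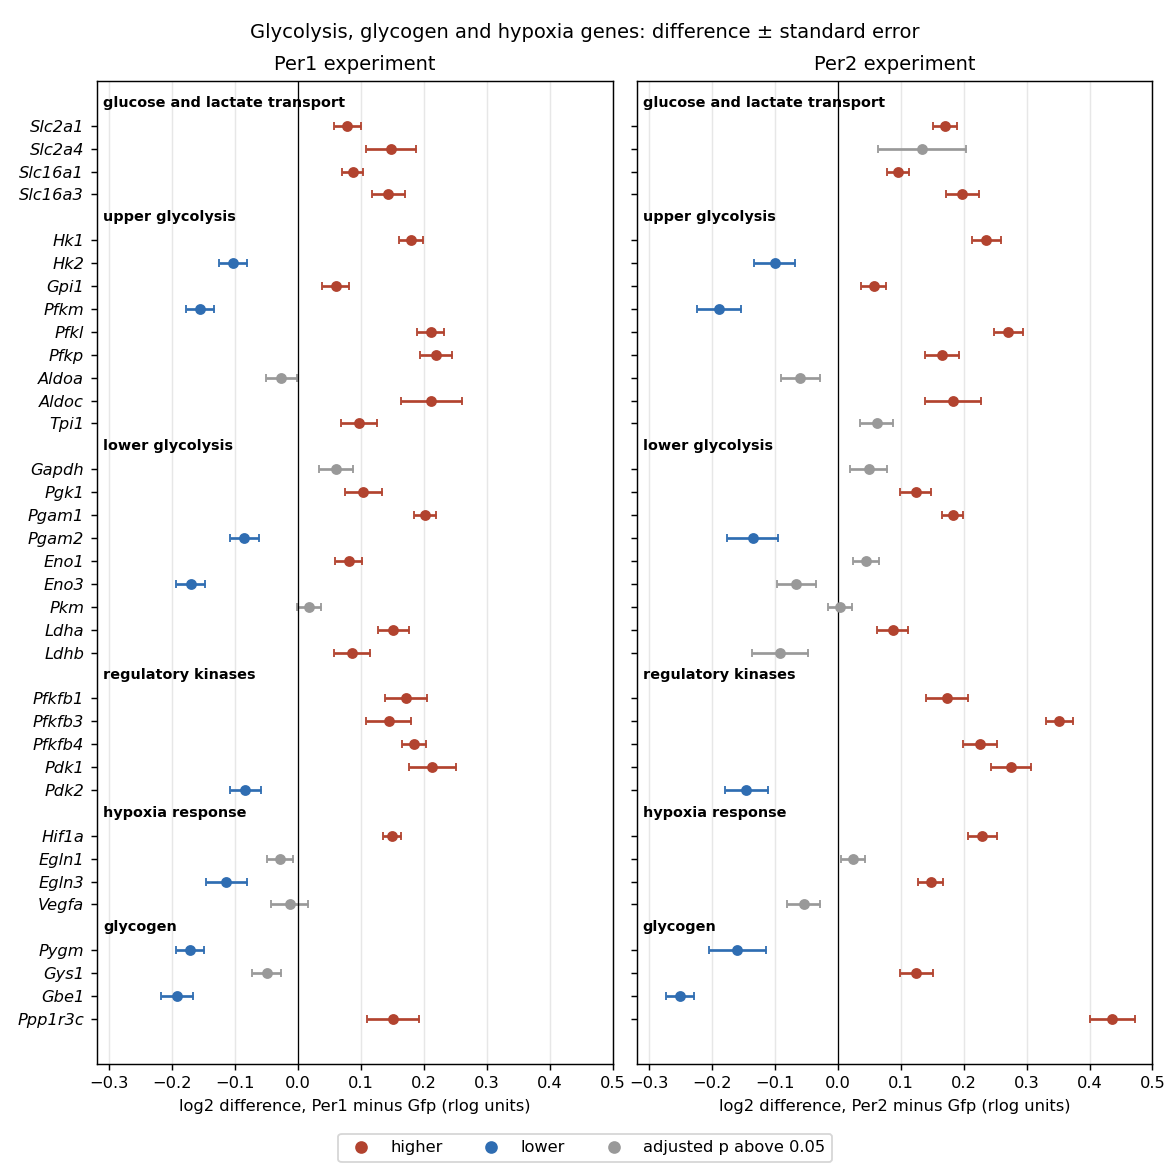
Log2 difference ± standard error (x axis, rlog units, n = 5 libraries per group) of the 35 genes, grouped by role (y axis), with Per1 (left) and Per2 (right), coloured by call at an adjusted p of 0.05. Ppp1r3c and Pfkfb3 stand farthest to the right with Per2 (0.44 and 0.35), and Gbe1 farthest to the left in both experiments (-0.19 and -0.25).

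The genes for bringing in glucose and moving lactate across the membrane rose or did not pass the test, and none was lower. All 4 were higher with Per1 and 3 of 4 with Per2. Slc16a3, the MCT4 lactate exporter of glycolytic cells, rose by 0.14 with Per1 (SE 0.027, adjusted p = 0.000565 by limma) and by 0.20 with Per2 (SE 0.027, adjusted p = 5.12e-05). In the Per2 experiment its rlog was 12.97, 13.07, 13.12, 13.11 and 13.02 in the Gfp libraries and 13.27, 13.25, 13.28, 13.26 and 13.24 with Per2. Every Per2 library lay above every Gfp library, and the Per2 libraries were much closer to each other than the Gfp libraries were. Slc16a1, which encodes the MCT1 lactate and pyruvate transporter, was higher by 0.09 with Per1 and 0.10 with Per2, without overlap in either. Slc2a1, the basal glucose transporter GLUT1, was higher by 0.08 with Per1, with overlapping libraries, and by 0.17 with Per2, without overlap (adjusted p = 0.00784 and 1.09e-05). Slc2a4, the insulin-responsive transporter GLUT4 of muscle and fat, was higher with Per1 by 0.15 (adjusted p = 0.00875). With Per2 its difference was 0.13 with the widest standard error of the set (0.070, adjusted p = 0.153). Per2 library 1 stood at 10.72, while the other Per2 libraries ran from 10.31 to 10.46. The difference was 0.07 without that library and 0.18 without Gfp library 3, neither past the test.

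In upper glycolysis, where glucose is phosphorylated and split, the hexokinase genes Hk1 and Hk2 moved in opposite directions in both experiments, as did the phosphofructokinase genes. Hexokinase traps glucose in the cell. Hk1 rose by 0.18 with Per1 (SE 0.020, adjusted p = 5.44e-06), from 15.56, 15.52, 15.50, 15.49 and 15.51 in the Gfp libraries to 15.68, 15.64, 15.73, 15.72 and 15.71. With Per2 it rose by 0.24 (SE 0.023, adjusted p = 2.55e-06), from 15.29, 15.30, 15.26, 15.24 and 15.20 to 15.55, 15.48, 15.49, 15.46 and 15.47. The groups were apart in both experiments. Hk2, the insulin-regulated hexokinase of muscle, fell by 0.10 with Per1 (SE 0.022, adjusted p = 0.00164), without overlap, and by 0.10 with Per2 (SE 0.032, adjusted p = 0.0255), with overlap. Under Rplp0 centring the call of Hk2 was lost in both experiments, with an adjusted p of 0.158 with Per1 and 0.987 with Per2. The Per2 call was also lost without Gfp library 1, Per2 library 4 or Per2 library 5, with an adjusted p of 0.0514 to 0.0697. Quantile normalization ended that call too (adjusted p = 0.0532 by limma), as did dropping the filter on low values. Gpi1, the next enzyme, which turns glucose 6-phosphate into fructose 6-phosphate, was higher by 0.06 in each experiment (adjusted p = 0.034 with Per1 and 0.0433 with Per2), with overlapping libraries. These were among the weakest calls of the set: Gpi1 lost its call without any of 6 libraries in the Per1 experiment (Gfp 11, 13 and 14 and Per1 12, 13 and 15), with an adjusted p of up to 0.0931, and without any of 8 in the Per2 experiment (all but Gfp 3 and Per2 5), with an adjusted p of up to 0.105. Median centring ended both calls, with an adjusted p of 0.145 with Per1 and 0.193 with Per2.

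Phosphofructokinase carries the committed step of glycolysis, and its 3 genes split in the same way. Pfkl, named for liver, rose by 0.21 with Per1 (SE 0.022, adjusted p = 3.32e-06), from 15.38, 15.29, 15.38, 15.42 and 15.39 to 15.56, 15.59, 15.62, 15.55 and 15.60. With Per2 it rose by 0.27 (SE 0.023, adjusted p = 7.54e-07), from 14.81, 14.87, 14.90, 14.85 and 14.81 to 15.16, 15.12, 15.13, 15.12 and 15.06. In both experiments every Per library was above every Gfp library. Pfkp, named for platelets, showed the largest rise of the 35 genes with Per1, 0.22 (SE 0.025, adjusted p = 7.3e-06), with 15.01, 14.88, 14.93, 14.99 and 14.91 in the Gfp libraries and 15.16, 15.19, 15.20, 15.11 and 15.15 with Per1. It rose by 0.17 with Per2 (SE 0.027, adjusted p = 0.000295). Neither comparison had overlapping libraries. Pfkm, the muscle gene, fell by 0.16 with Per1 (SE 0.022, adjusted p = 6.05e-05), without overlap. With Per2 it fell by 0.19 (SE 0.035, adjusted p = 0.000772), from 16.11, 16.02, 16.17, 16.03 and 16.06 to 15.99, 15.93, 15.90, 15.81 and 15.82, and here the highest Per2 library (1) came close to the lowest Gfp library (2). Rplp0 centring ended the Pfkm call with Per2 (adjusted p = 0.107) and not with Per1.

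Aldolase and triose phosphate isomerase follow. Aldoa, the muscle aldolase, was called in neither experiment (-0.03 with Per1, adjusted p = 0.426, and -0.06 with Per2, adjusted p = 0.148). Aldoc, the brain aldolase, was higher by 0.21 with Per1 (SE 0.049, adjusted p = 0.00281) and by 0.18 with Per2 (SE 0.044, adjusted p = 0.00467). Its rlog in the Per1 experiment was 8.41, 8.20, 8.37, 8.37 and 8.28 in the Gfp libraries and 8.59, 8.61, 8.59, 8.39 and 8.51 with Per1, so that the groups overlapped at Per1 library 14. Tpi1, which interconverts the 3-carbon products, was higher by 0.10 with Per1 (adjusted p = 0.016), with overlapping libraries, and its difference with Per2 was 0.06 (adjusted p = 0.0799).

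In lower glycolysis, where ATP and pyruvate are made, 5 genes were higher and 2 lower with Per1, and 3 were higher and 1 lower with Per2. Phosphoglycerate mutase again showed a ubiquitous gene going up and a muscle gene going down. Pgam1 rose by 0.20 with Per1 (SE 0.018, adjusted p = 5.15e-07), from 16.33, 16.33, 16.36, 16.39 and 16.39 to 16.54, 16.57, 16.59, 16.55 and 16.56, and this was the smallest adjusted p of the set in that experiment. With Per2 it rose by 0.18 (SE 0.017, adjusted p = 1.86e-06), and the libraries were apart in both experiments. Pgam2, the muscle gene, fell by 0.09 with Per1 (SE 0.023, adjusted p = 0.00724), without overlap, and by 0.14 with Per2 (SE 0.040, adjusted p = 0.0169), with overlap. Its calls were lost under Rplp0 centring (adjusted p = 0.267 with Per1 and 0.531 with Per2), and with Per1 under quantile normalization too. The windows of 250 bases that end at the start sites, written 5′ to 3′ on the gene's strand, of Pgam1 (chr19:41911621-41911870, plus strand) and Pgam2 (chr11:5803797-5804046, minus strand), from RefSeq on build GRCm38.p6, are set side by side because these genes moved apart. Capitals mark the cores of hypoxia response elements described further on. The Pgam1 window held 3 such cores and the Pgam2 window held 0, although most of the lower genes did hold a core.
Pgam1: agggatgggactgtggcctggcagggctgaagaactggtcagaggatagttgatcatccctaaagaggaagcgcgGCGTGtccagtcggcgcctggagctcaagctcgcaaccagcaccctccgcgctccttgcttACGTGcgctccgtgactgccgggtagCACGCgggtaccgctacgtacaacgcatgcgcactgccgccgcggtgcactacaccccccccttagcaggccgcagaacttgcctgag
Pgam2: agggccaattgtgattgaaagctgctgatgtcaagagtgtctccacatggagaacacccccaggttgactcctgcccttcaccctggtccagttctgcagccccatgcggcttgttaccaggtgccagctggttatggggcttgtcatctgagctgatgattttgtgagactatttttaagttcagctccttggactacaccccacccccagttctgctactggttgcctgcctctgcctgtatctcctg

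Enolase, which forms phosphoenolpyruvate, behaved alike with Per1. Eno1, the gene found in most tissues, was higher by 0.08 with Per1 (adjusted p = 0.00775) and Eno3, the muscle gene, fell by 0.17 (SE 0.024, adjusted p = 4.39e-05). Both comparisons were without overlap. With Per2 neither passed the test, at 0.04 for Eno1 (adjusted p = 0.11) and -0.07 for Eno3 (adjusted p = 0.116). Pgk1, which makes the first ATP of the pathway, was higher by 0.10 with Per1 (adjusted p = 0.0122) and by 0.12 with Per2 (adjusted p = 0.00123). Gapdh, which oxidises glyceraldehyde 3-phosphate, had differences of 0.06 with Per1 (adjusted p = 0.0932) and 0.05 with Per2 (adjusted p = 0.217), and Pkm, the pyruvate kinase gene of muscle, of 0.02 and 0.003 (adjusted p = 0.51 and 0.916). None of these 4 values for Gapdh and Pkm passed the test.

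Ldha, whose subunit favours lactate formation, was higher in both experiments, by 0.15 with Per1 (SE 0.025, adjusted p = 0.000203) and by 0.09 with Per2 (SE 0.025, adjusted p = 0.0127). Its rlog with Per1 was 17.69, 17.77, 17.75, 17.68 and 17.72, against 17.55, 17.49, 17.60, 17.60 and 17.60 with Gfp. All Per1 libraries were above all Gfp libraries, while with Per2 the groups only just cleared each other, the highest Gfp library and the lowest Per2 library both rounding to 17.40. Ldhb, the subunit of heart, was higher with Per1 by 0.09 (adjusted p = 0.0247), and its difference with Per2 was -0.09 (adjusted p = 0.121), with overlap in both. The Per1 call of Ldhb was lost when Gfp library 13 or 15 or Per1 library 11, 12 or 13 was left out, with an adjusted p of 0.0506 to 0.0651, and without a filter on low values or with median centring. No test was made between the Per1 and Per2 effects. A window of Ldha on GRCm38.p6 (chr7:46845554-46845803, plus strand) is printed because it held the most capitals of those shown here, with 2 copies of CACGTG and a further core. Another window of the gene (chr7:46846832-46847081, plus strand) held 1 core and 0 copies of CACGTG.
Ldha: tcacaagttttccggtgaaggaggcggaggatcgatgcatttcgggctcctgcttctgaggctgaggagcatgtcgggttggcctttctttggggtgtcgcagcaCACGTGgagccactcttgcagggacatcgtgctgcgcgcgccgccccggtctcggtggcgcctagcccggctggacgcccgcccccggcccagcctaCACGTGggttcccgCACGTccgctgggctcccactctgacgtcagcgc

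Some of these abundant genes share stretches of transcript sequence with other genes, and reads from such stretches cannot be assigned by sequence alone. Whether the other genes are copies or pseudogenes was not tested. Of all 50-base words in the annotated transcripts, 51.8% for Pgk1, 29.3% for Pgam1, 28.8% for Aldoa, 21.2% for Pkm, 17.7% for Pfkm, 16.1% for Gapdh and 10.8% for Eno1 also occurred in another gene. Smaller shares included 6.2% for Ldhb, 5.2% for Gpi1 and 4.6% for Ldha. The gene sharing the most words was Pgk1-rs7 for Pgk1, Pgam1-ps2 for Pgam1 and Gapdhrt for Gapdh. For Aldoa, Pkm, Pfkm and Eno1 it was Gm57854, Gm49759, Gm26513 and Gm75782. How the counting shared such reads is not given in the sources used here, so the values of these genes are uncertain to that extent. Hk1, Hk2, Pfkp, Pgam2, Pfkfb4, Slc2a1, Slc16a1, Egln3, Gbe1 and Ppp1r3c shared none.

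The kinases that regulate glycolysis and pyruvate entry into the mitochondria were all called in both experiments, 4 higher and 1 lower each time. Pfkfb1, Pfkfb3 and Pfkfb4 encode enzymes that make or break down fructose 2,6-bisphosphate, the strongest activator of phosphofructokinase. Pfkfb3 (chromosome 2 of GRCm39 from 11476244 to 11558888, minus strand), an inducible form that acts mainly as the kinase, rose by 0.35 with Per2 (SE 0.022, adjusted p = 4.65e-08), a fold of 1.28 on the rlog scale and the smallest adjusted p of the set. Its rlog was 10.73, 10.76, 10.69, 10.73 and 10.72 in the Gfp libraries and 11.09, 11.06, 11.11, 11.05 and 11.07 with Per2. The gap between the groups was several times wider than the spread within either. With Per1 it was higher by 0.14 (SE 0.036, adjusted p = 0.00485), from 11.27, 11.28, 11.29, 11.41 and 11.31 to 11.49, 11.46, 11.54, 11.34 and 11.44. Per1 library 14 lay within the Gfp range there. A window of Pfkfb3 on GRCm38.p6 (chr2:11502091-11502340, minus strand) is shown, and it held a CACGTG and a GCGTG. Another window of the gene (chr2:11553930-11554179, minus strand) held 1 core and 0 copies of CACGTG. Which start site the myotubes use was not tested.
Pfkfb3: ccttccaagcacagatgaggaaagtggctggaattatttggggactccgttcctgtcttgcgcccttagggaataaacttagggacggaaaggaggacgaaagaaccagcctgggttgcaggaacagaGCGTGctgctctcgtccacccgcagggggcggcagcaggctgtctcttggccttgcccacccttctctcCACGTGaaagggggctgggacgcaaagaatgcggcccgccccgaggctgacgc

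Pfkfb4 rose by 0.18 with Per1 (SE 0.019, adjusted p = 2.86e-06), from 11.34, 11.31, 11.28, 11.33 and 11.32 to 11.53, 11.49, 11.50, 11.50 and 11.48. With Per2 it rose by 0.23 (SE 0.027, adjusted p = 1.77e-05), from 11.02, 11.03, 11.08, 11.04 and 11.01 to 11.34, 11.24, 11.22, 11.28 and 11.23. The groups were apart in both. Pfkfb1, best known from liver and muscle and the least abundant member in the Per1 experiment, rose by 0.17 with Per1 (SE 0.033, adjusted p = 0.000691), from 7.82, 7.80, 7.91, 7.87 and 7.87 to 8.06, 8.06, 7.95, 8.06 and 8.01. Its rise with Per2 was 0.17 as well (SE 0.034, adjusted p = 0.00104), again without overlap.

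Pyruvate dehydrogenase kinases switch off the enzyme complex that commits pyruvate to the mitochondria. Pdk1, a HIF-1 target, rose by 0.21 with Per1 (SE 0.037, adjusted p = 0.000346), from 14.26, 14.20, 14.37, 14.42 and 14.34 to 14.57, 14.52, 14.60, 14.46 and 14.51. With Per2 it rose by 0.27 (SE 0.032, adjusted p = 1.28e-05), from 13.75, 13.87, 13.92, 13.84 and 13.89 to 14.12, 14.14, 14.21, 14.08 and 14.09. Every Per library was above every Gfp library in both. Pdk2, abundant in muscle and heart, fell by 0.08 with Per1 (adjusted p = 0.0124), with overlap, and by 0.15 with Per2 (SE 0.035, adjusted p = 0.0046), without overlap. Under Rplp0 centring its adjusted p was 0.379 with Per1 and 0.452 with Per2.

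Of the 4 hypoxia genes, Hif1a rose in both experiments. Its rise with Per1 was 0.15 (SE 0.014, adjusted p = 9.82e-07), from 15.03, 15.05, 15.06, 15.05 and 15.03 to 15.19, 15.19, 15.19, 15.21 and 15.19, and these 5 Per1 libraries lay closer together than those of any other of the 35 genes. With Per2 it was 0.23 (SE 0.024, adjusted p = 4.75e-06), from 14.94, 15.01, 14.87, 14.90 and 14.92 to 15.16, 15.14, 15.20, 15.13 and 15.17, again without overlap. The HIF-1 alpha protein is controlled mainly by its breakdown, which these mRNA values do not measure. The window before Hif1a on GRCm38.p6 (chr12:73907617-73907866, plus strand) is printed because the gene encodes the factor whose sites are searched for, and it held a CACGTG and a further ACGTG.
Hif1a: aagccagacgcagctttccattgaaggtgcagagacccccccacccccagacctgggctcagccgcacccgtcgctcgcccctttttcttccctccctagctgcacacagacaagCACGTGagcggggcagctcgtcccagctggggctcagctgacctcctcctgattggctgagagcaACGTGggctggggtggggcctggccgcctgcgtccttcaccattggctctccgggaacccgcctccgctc

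Egln1 and Egln3 encode the PHD2 and PHD3 prolyl hydroxylases, which mark HIF alpha proteins for breakdown, and Egln3 is itself a HIF-1 target. Egln3 was the member that was called in opposite directions. With Per1 it fell by 0.11 (SE 0.032, adjusted p = 0.0108), from 14.55, 14.48, 14.59, 14.61 and 14.56 to 14.50, 14.43, 14.53, 14.36 and 14.41. With Per2 it rose by 0.15 (SE 0.019, adjusted p = 4.28e-05), from 13.97, 13.98, 13.99, 13.97 and 13.97 to 14.12, 14.12, 14.17, 14.07 and 14.14. The Per1 libraries overlapped with Gfp and the Per2 libraries did not. The fall was not called under Rplp0 centring (adjusted p = 0.139), and the difference between the experiments was not tested. Egln1 (-0.03 with Per1 and 0.02 with Per2) and Vegfa, the angiogenic growth factor (-0.01 and -0.05), did not pass the test in either experiment (adjusted p of 0.116 to 0.75).

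Of the 4 glycogen genes, 1 was higher and 2 were lower with Per1, and 2 were higher and 2 lower with Per2. Ppp1r3c (chromosome 19 of GRCm39 from 36708523 to 36714070, minus strand) encodes PTG, a subunit that brings protein phosphatase 1 to glycogen and favours its synthesis. It showed the largest difference of the 35 genes, a rise of 0.44 with Per2 (SE 0.036, adjusted p = 6.63e-07), or a fold of 1.35 on the rlog scale. Its rlog was 10.29, 10.37, 10.45, 10.41 and 10.36 in the Gfp libraries and 10.90, 10.83, 10.83, 10.71 and 10.79 with Per2, so the lowest Per2 library stood well above the highest Gfp library. Under Rplp0 centring the difference was 0.54, and Ppp1r3c was then the only member past 0.5. With Per1 it was higher by 0.15 (SE 0.042, adjusted p = 0.00956), from 10.42, 10.34, 10.48, 10.54 and 10.42 to 10.67, 10.61, 10.66, 10.47 and 10.56, with Per1 library 14 inside the Gfp range.

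Gbe1 (chromosome 16 of GRCm39 from 70110715 to 70366609, plus strand), the branching enzyme of glycogen, showed the largest fall in both experiments. It fell by 0.19 with Per1 (SE 0.025, adjusted p = 2.83e-05), from 12.84, 12.79, 12.91, 12.87 and 12.85 to 12.70, 12.63, 12.69, 12.60 and 12.67. With Per2 it fell by 0.25 (SE 0.022, adjusted p = 1.05e-06), from 12.98, 12.92, 12.92, 12.93 and 12.93 to 12.71, 12.68, 12.71, 12.61 and 12.71. The groups were apart in both, and Gbe1 stayed called as lower under every alternative tried, Rplp0 centring included. Pygm, the muscle glycogen phosphorylase that releases glucose 1-phosphate, fell by 0.17 with Per1 (SE 0.023, adjusted p = 3e-05), from 15.65, 15.66, 15.57, 15.62 and 15.58 to 15.49, 15.43, 15.48, 15.40 and 15.42, without overlap. With Per2 it fell by 0.16 (SE 0.045, adjusted p = 0.0123) with overlapping libraries, and the call was lost under Rplp0 centring (adjusted p = 0.378). Gys1, the muscle glycogen synthase, was higher by 0.12 with Per2 (SE 0.027, adjusted p = 0.00212), without overlap, and its difference with Per1 was -0.05 (adjusted p = 0.104). The windows of the genes that rose and fell the most are printed together, Ppp1r3c (chr19:36736605-36736854, minus strand) and Gbe1 (chr16:70313699-70313948, plus strand) on GRCm38.p6. That of Ppp1r3c held a CACGTG and 2 further cores, and that of Gbe1 held none. Gbe1 and Pgam2 were the only lower genes without a core. Of the lower genes with a window, 6 of 8 with Per1 and 4 of 6 with Per2 held a core, and Gpi1, which was higher, held none.
Ppp1r3c: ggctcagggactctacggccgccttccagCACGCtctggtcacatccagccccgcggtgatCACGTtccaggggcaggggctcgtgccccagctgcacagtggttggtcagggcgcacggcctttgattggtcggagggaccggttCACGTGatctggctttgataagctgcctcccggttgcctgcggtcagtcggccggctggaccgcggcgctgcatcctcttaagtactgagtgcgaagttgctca
Gbe1: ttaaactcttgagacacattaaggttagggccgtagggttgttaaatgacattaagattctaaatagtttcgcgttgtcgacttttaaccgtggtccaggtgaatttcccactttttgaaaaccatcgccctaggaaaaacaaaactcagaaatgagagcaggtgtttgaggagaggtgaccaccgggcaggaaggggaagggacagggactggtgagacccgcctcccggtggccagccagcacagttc

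**Figure D3:**
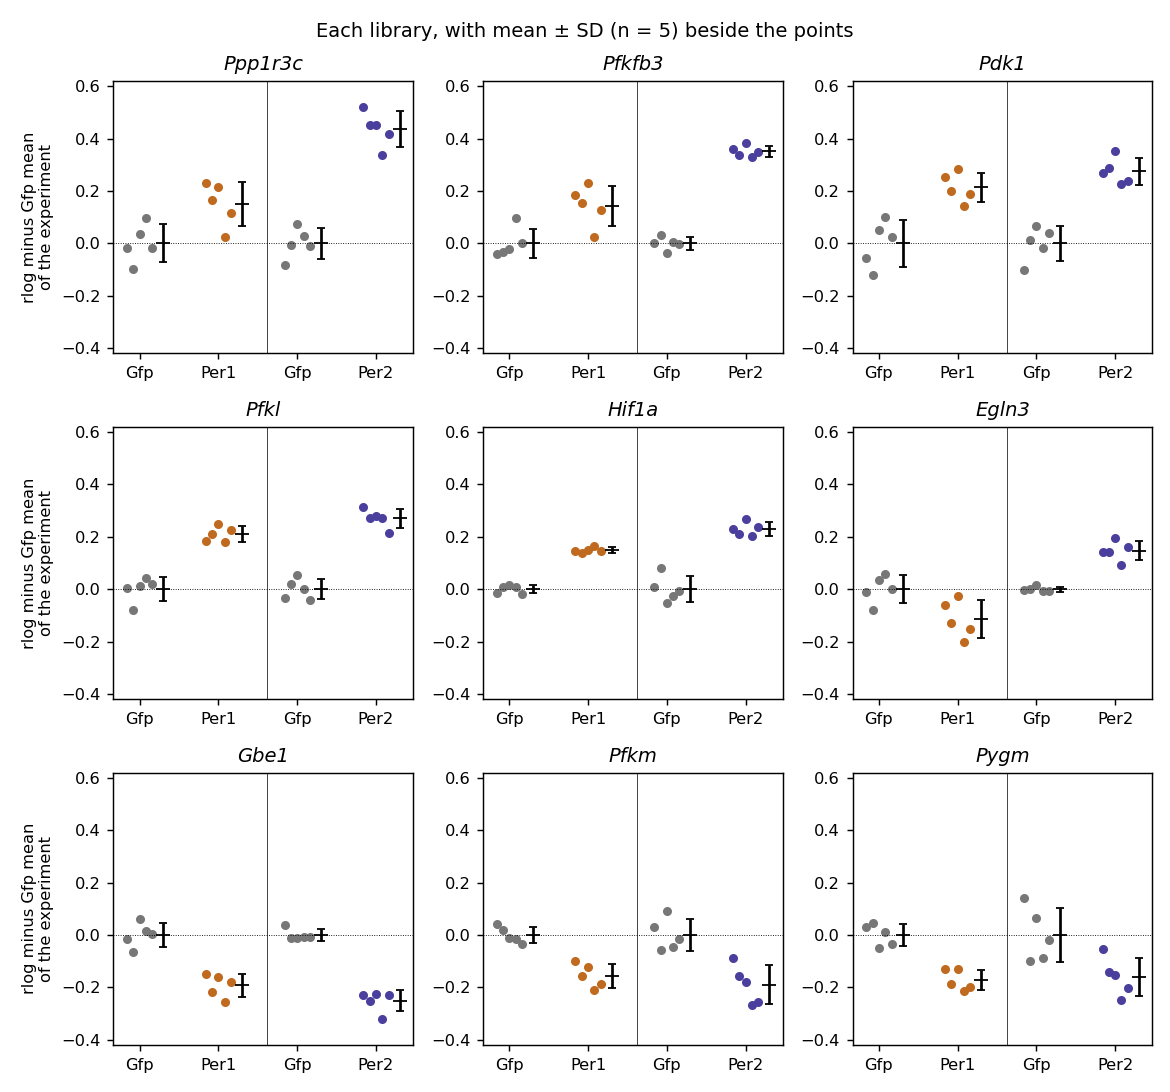
Each library's rlog minus the Gfp mean of its experiment (y axis) for 9 genes, with Gfp and Per1 libraries left of the line and Gfp and Per2 libraries right of it (x axis), and the mean ± SD (n = 5) beside the points. Ppp1r3c shows its 0.44 rise with Per2, Egln3 lies below Gfp with Per1 and above it with Per2, and Gbe1, Pfkm and Pygm lie below Gfp with both.

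The ratio of a pair of genes within a library does not change when a whole library shifts, so centring the libraries leaves it as it is. It was computed as the difference of 2 rlog values for 11 pairs and is given as a description without a test. Of these, 10 were pairs of alternative genes, with the gene favoured in muscle first where there is such a gene, and 1 was Pygm to Gys1, the enzymes that break down and build glycogen. With Per1, 8 of the 11 ratios were lower than with Gfp without overlap, 0 were higher without overlap and 3 overlapped. With Per2, 8 were lower without overlap, 2 were higher and 1 overlapped. Over all pairs of genes in the abundant range, the ratio did not overlap in either direction for 41.7% of pairs with Per1 and 36.0% with Per2. The 8 lower ratios were those of the same pairs in both experiments, namely 7 pairs of alternative genes (Hk2 to Hk1, Pfkm to Pfkl, Pfkm to Pfkp, Aldoa to Aldoc, Pgam2 to Pgam1, Eno3 to Eno1 and Pdk2 to Pdk1) and Pygm to Gys1. The pairs that share Pfkm are not independent of each other.

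The Pfkm to Pfkl ratio moved the most with Per2, by -0.46, from 1.23 ± 0.059 to 0.77 ± 0.052 (log2, mean ± SD, n = 5), and by -0.37 with Per1, from 1.00 ± 0.065 to 0.63 ± 0.049. Its values with Per2 were 0.83, 0.81, 0.78, 0.69 and 0.76, against 1.30, 1.16, 1.27, 1.19 and 1.26 with Gfp. The highest Per2 value was well below the lowest Gfp value. The Hk2 to Hk1 ratio moved by -0.28 with Per1 and -0.34 with Per2, Pgam2 to Pgam1 by -0.29 and -0.32, and Pdk2 to Pdk1 by -0.30 and -0.42. The Aldoa to Aldoc ratio moved by -0.24 in each, although Aldoa itself was called in neither experiment, and after quantile normalization by -0.27 with Per1 and -0.16 with Per2. The Gfp mean of the Aldoa to Aldoc ratio was 10.15 in the Per1 experiment and 10.40 in the Per2 experiment, a wide gap. Aldoc had the lowest mean rlog of the members in the Per2 experiment. Whether rlog drew Aldoa and Aldoc toward 0 alike was not tested. Eno3 to Eno1 moved by -0.25 and -0.11. The ratios that were higher with Per2 were Ldha to Ldhb, by 0.18, and Slc16a3 to Slc16a1, by 0.10, and with Per1 these moved by 0.07 and 0.06 with overlap. Slc2a4 to Slc2a1 overlapped in both experiments.

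**Figure D4:**
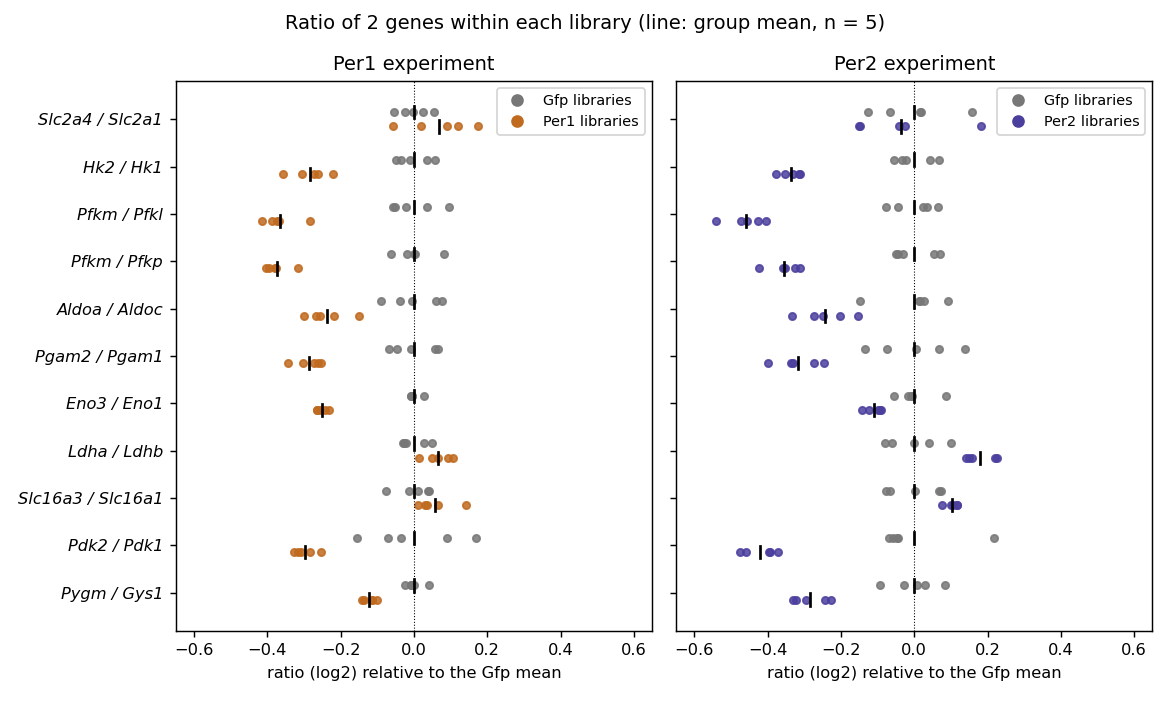
Log2 ratio of the named pair within each library relative to the Gfp mean of its experiment (x axis) for 11 pairs (y axis), in the Per1 experiment (left) and the Per2 experiment (right), with 1 point per library and a line at each group mean (n = 5). For 8 pairs in each experiment all Per libraries lie left of all Gfp libraries, the farthest being Pfkm to Pfkl with Per2 (-0.46).

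Marker genes of cell types moved alongside these ratios. The cultures were all of 1 myoblast line, so a marker named for another cell type does not show that such cells were present. As background, 20.1% of all genes were higher and 20.6% lower with Per1, and 18.6% and 17.5% with Per2. In the abundant range these shares were 24.8% and 28.0% with Per1 and 25.2% and 21.2% with Per2. Of 12 myotube genes, 11 were lower and 0 higher with Per1, and the log2 of their summed level ran from 21.22 to 21.24 in the Gfp libraries and from 21.02 to 21.09 with Per1. With Per2, 5 were lower and 1 higher, and the summed level ran from 20.92 to 21.09 with Gfp and from 20.87 to 20.94 with Per2, so that the groups overlapped. Of 6 myoblast markers (Mki67, Top2a, Ccnb1, Cdk1, Pax7 and Myf5), 3 were higher and 1 lower with Per1, and 3 were higher and 0 lower with Per2. With Per1, Myf5 (0.53), Ccnb1 (0.10) and Pax7 (0.09) were higher. The proliferation marker Mki67 was lower (-0.10, adjusted p = 0.0428 by limma), and Top2a and Cdk1 were not called. The summed level of these 6 ran from 16.31 to 16.43 with Gfp and 16.40 to 16.54 with Per1, and from 16.48 to 16.64 with Gfp and 16.59 to 16.75 with Per2. Of 4 fibro-adipogenic markers tested, Ly6a, Dcn and Cd34 were higher in both experiments. The other, Pdgfra, was called in neither, and its difference with Per1 was -0.12 (adjusted p = 0.0929 by limma). The summed level of the list was 15.98 to 16.07 with Gfp against 16.30 to 16.44 with Per1, and 15.81 to 15.98 against 16.13 to 16.21 with Per2. This sum mostly follows Ly6a, whose Gfp mean in the Per1 experiment was 15.56, against 13.79 for Dcn. Of 6 macrophage and leukocyte markers, 4 could be tested with Per1 and 5 with Per2, and in each experiment 0 were higher and 1 (Cd68) was lower. Their summed level ran from 9.70 to 9.74 with Gfp and 9.61 to 9.72 with Per1, and from 9.83 to 9.94 with Gfp and 9.82 to 9.85 with Per2. The macrophage marker Adgre1 was listed at 0 in all 10 libraries of the Per2 experiment. Of 4 endothelial markers, 2 were higher and 1 lower with Per1, and 0 were higher and 3 lower with Per2. Their summed level ran from 8.05 to 8.20 with Gfp and 8.27 to 8.34 with Per1, and from 8.11 to 8.21 with Gfp and 8.14 to 8.26 with Per2. The part of these marker changes in the results above was not tested.

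Promoters were searched for the short sequence at the core of hypoxia response elements, to which HIF-1 binds, and for the E-box CACGTG, through which the clock factors CLOCK and BMAL1 act and which are held back by PER proteins. The cores searched were ACGTG and GCGTG on either strand, and since CACGTG reads the same on both strands it contains ACGTG on each. In the 250 bases before the start sites, as RefSeq gives them on GRCm38.p6, 34 of the 35 genes had at least 1 window. A core was found for 29 of them (85.3%), against 41.5% of all 27025 genes with a window and 57.4% of the 12576 that were tested in the Per1 experiment. Counted over windows, since some genes have several, it was in 37 of 52 (71.2%), against 38.6% of all windows and 51.7% of those of tested genes. The genes without a core were Gpi1, Tpi1, Pgam2, Gys1 and Gbe1. The E-box was found for 7 genes (20.6%), against 6.86% of all genes and 9.25% of tested genes. Outside an E-box, a core was found for 28 genes (82.4%), against 38.3% and 53.8%. The members were listed as genes of pathways that HIF-1 acts on, so a larger share with a core could follow from that choice alone. The shares were not set against genes as abundant as the members.

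By direction, a core was present for 18 of the 20 higher genes with a window and 6 of the 8 lower genes with Per1, and for 17 of 19 and 4 of 6 with Per2. An E-box was present for 5 of 20 and 2 of 8 with Per1, and for 5 of 19 and 2 of 6 with Per2. Such a match of letters describes the sequence and is not evidence that a factor binds there.

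Other genes of the same pathways went in both directions. Of 25 other genes of glycolysis and pyruvate use that were tested, 7 were higher and 8 lower with Per1, and 6 were higher and 4 lower with Per2. These are shares of 28.0% and 32.0% with Per1 and of 24.0% and 16.0% with Per2. Among all genes 20.1% were higher and 20.6% lower with Per1 and 18.6% and 17.5% with Per2. In the abundant range the shares were 24.8% and 28.0% with Per1 and 25.2% and 21.2% with Per2. In both experiments the shares of this list lay near the abundant background. Pdk4, the pyruvate dehydrogenase kinase induced by fasting, fell by 0.29 with Per1 and by 0.27 with Per2. Pcx, pyruvate carboxylase, fell by 0.21 with Per1. With Per2, Pdp2, a phosphatase that reactivates pyruvate dehydrogenase, rose by 0.31, and Txnip, which restrains glucose uptake, rose by 0.25. Of 8 pentose phosphate genes, 5 were higher and 2 lower with Per1 and 3 were higher and 3 lower with Per2, against the same backgrounds. G6pdx, the entry enzyme of that pathway, rose by 0.20 with Per1, and Pgd, the enzyme that follows shortly after, fell by 0.19 with Per1 and 0.28 with Per2.

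Of 27 other hypoxia genes tested in each experiment, 13 were higher and 4 lower with Per1, and 15 were higher and 2 lower with Per2. These are shares of 48.1% and 14.8% with Per1 and of 55.6% and 7.41% with Per2. Among all genes they were 20.1% and 20.6% with Per1 and 18.6% and 17.5% with Per2. In the abundant range they were 24.8% and 28.0% with Per1 and 25.2% and 21.2% with Per2. The mitophagy gene Bnip3, a HIF-1 target, rose by 0.29 with Per1 and 0.56 with Per2. Other rises were Ddit4, a stress inhibitor of mTORC1 (0.32 with Per1), Fam162a (0.28 with Per1), the adenylate kinase Ak4 (0.39 with Per2) and Loxl2, a collagen cross-linking enzyme (0.65 with Per2). Bhlhe40, a repressor that is also part of the clock, fell by 0.34 with Per1, and Hmox1, the heme-degrading enzyme, fell by 0.70 with Per2.

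Of 22 other glycogen genes tested, 9 were higher and 5 lower with Per1, and 7 were higher and 7 lower with Per2. These are shares of 40.9% and 22.7% with Per1 and of 31.8% and 31.8% with Per2. Among all genes they were 20.1% and 20.6% with Per1 and 18.6% and 17.5% with Per2. In the abundant range they were 24.8% and 28.0% with Per1 and 25.2% and 21.2% with Per2. Ppp1r3b, another subunit that targets protein phosphatase 1 to glycogen, was higher by 0.24 with Per1, while Ppp1r3a, the muscle member of that family, fell by 0.41 with Per2, the opposite direction to Ppp1r3c. Phkg1, the catalytic subunit of muscle phosphorylase kinase, fell by 0.28 with Per2. Of 15 genes of insulin signalling and GLUT4 traffic, 1 was higher and 8 lower with Per1, and 2 were higher and 1 lower with Per2. These are shares of 6.67% and 53.3% with Per1 and of 13.3% and 6.67% with Per2, beside the same backgrounds. Irs2, an adaptor of the insulin receptor, fell by 0.31 with Per1 and by 0.46 with Per2. Adjusted p values for the genes named in these lists were from limma over all genes tested.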

How the data were processed

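Poly(A) RNA of 20 C2C12 myotube libraries was sequenced. Per the study's methods, the authors aligned the reads with STAR and counted them per gene, and the deposited values are log2 values (rlog, made with DESeq2). Tool versions are not given in the sources used here. The genome is GRCm39 in the study's methods and mm10 in the labels, which also differ in read length, sequencer and kit. Without counts, library depth is unknown and counting error could not be computed. The experiments' values had been made separately (2712 genes stood at 0 throughout the Per1 experiment but not the Per2 experiment, and 2391 the other way round). Gfp libraries were assigned to an experiment by the number series in the labels.

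The 35 genes and all other lists were chosen with earlier results of these data known. Symbols and gene positions are from GENCODE M39 (GRCm39), which held 51654 of 55335 gene IDs and each of the 35 once. Promoter windows are RefSeq's on GRCm38.p6, used with their own coordinates only. Each Per group was compared with the Gfp group of its experiment with limma 3.58.1 in R 4.3.3 (eBayes with trend, two-sided tests, Benjamini-Hochberg adjustment over every gene averaging an rlog of 3 or more), and the procedure was tested on simulated data. Values in every library are given for the 10 largest called differences in each comparison and for genes called in opposite directions, and for a few others chosen after their values were seen. Of each other list, up to 4 called genes with the largest differences are named. The alternatives tried were dropping the filter on low values, raising it to a mean of 5, centring on the median or on Rplp0, quantile normalization, a fit with no trend, array weights, a replicate block built on library numbers, and omitting single libraries.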

Additional observations from a re-analysis of the deposited data

Results flagged for a closer look

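In 5 libraries per group, 3 of 140 groups had a library farther from the rest than Dixon's critical value of 0.71, while chance alone would give about 7. Slc16a3 was at 13.79 in Gfp library 13 of the Per1 experiment, below the nearest library at 13.89. Gbe1 was at 12.98 in Gfp library 1 of the Per2 experiment, above the nearest at 12.93, and at 12.61 in Per2 library 4, below the nearest at 12.68. Each of these came from a different library.

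The differences of Ldhb and Egln3 from Gfp had opposite signs in the experiments. Ldhb differed from Gfp by 0.086 with Per1 and by -0.093 with Per2, and Egln3 by -0.11 with Per1 and by 0.15 with Per2. By limma, Ldhb did not pass the test with Per2 (adjusted p = 0.121). Since each experiment has its own set of rlog values, no test was made between Per1 and Per2.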

How the results depend on the processing

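Of the 29 genes called with Per1, 22 were called under each of the 18 alternatives, and of the 25 called with Per2, 19 were, with no called gene changing direction in any of them. Under Rplp0 centring the number of lower genes went from 8 to 4 with Per1 and from 6 to 1 with Per2, and 1 gene (Ppp1r3c) passed the 0.5 threshold upward with Per2. Under median centring the number of lower genes went from 6 to 10 with Per2. The uncalled values that changed sign were, under Rplp0 centring, Vegfa (0.012) with Per1 and Aldoa (0.040), Eno3 (0.034), Ldhb (0.0069) and Vegfa (0.045) with Per2, under median centring Pkm (-0.0044 with Per1 and -0.018 with Per2), and under quantile normalization Vegfa (0.0070) with Per1 and Aldoa (0.021) and Pkm (-0.12, adjusted p = 1.48e-05 by limma) with Per2. With single libraries left out, Pkm with Per2 ran from -0.0068 to 0.011 and Vegfa with Per1 from -0.030 to 0.0046. The cause was not tested. Leaving out single libraries gave 19 to 22 higher and 8 to 9 lower genes with Per1, and 18 to 20 higher and 5 to 8 lower with Per2. Leaving out a library also gave calls to Gapdh (Per1 library 14) and Gys1 (Per1 library 13) in the Per1 experiment and to Eno3 (Gfp library 1 or 2), Ldhb (Gfp library 2), Tpi1 (Gfp library 3) and Vegfa (Per2 library 1) in the Per2 experiment. The labels do not say whether the library numbers pair the samples. Same-numbered libraries deviated together with correlations of -0.01 to 0.14 with Per1 and -0.10 to 0.18 with Per2. With so few libraries these correlations cannot settle the pairing. With a replicate block 18 genes were higher and 7 lower with Per1, and 18 higher and 6 lower with Per2. The block used only numbers present in both groups, so the Per1 fit also left out Gfp library 16 and Per1 library 12. The genes past the test only without the block were Egln3 (adjusted p = 0.0602 by limma with it), Gpi1 (0.0852), Ldhb (0.114) and Ppp1r3c (0.0553) with Per1 and Gpi1 (0.055) with Per2. Leaving out Per1 library 12 with no block also ended the Per1 calls of Gpi1 (adjusted p = 0.0696 by limma) and Ldhb (0.0579). The ratios kept their sign under quantile normalization. Differences drawn toward 0 by rlog and an unknown depth limit what can be said of the less abundant genes, such as Aldoc and Pfkfb1.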
